A study of Mus musculus with 6 samples.

Results

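The genes described here are 35 genes of the p53 pathway, of cellular senescence and of apoptosis, taken by symbol from a table of 47480 genes. They comprise p53 and its regulators, cyclin-dependent kinase (CDK) inhibitors, death receptors, the BCL2 family, caspases with their activator, and further p53 target genes. All 35 symbols were found in the table. Their RNA levels were compared between 3 WT and 3 A2ARKO libraries of primary neonatal mouse chondrocytes, which are cartilage cells. WT mice were C57BL/6. A2ARKO mice were on the C57BL/6 background and were knocked out for the adenosine A2A receptor, which Adora2a encodes. Both genotypes were housed and fed alike. Cells were trypsinized and all animals of a litter were pooled into 1 library, so replicates are litters and a p-value reflects how much litters vary. The study set out to characterize drivers of osteoarthritis.

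The transcription factor p53 is kept low by Mdm2, which marks it for degradation, and is stabilized when DNA damage or other stress interrupts this control. It then switches on genes that stop the cell cycle, repair DNA or start apoptosis, and Mdm2 is itself one of its targets, which closes a feedback loop. Apoptosis is entered through death receptors at the cell surface or through the mitochondria, where the BCL2 family decides whether the outer membrane is opened and caspases are activated. In cartilage, chondrocyte apoptosis and senescence, a lasting exit from the cell cycle held by CDK inhibitors, are known features of osteoarthritis. p53 is regulated mostly at the protein level, which RNA sequencing does not measure.

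Levels are given in FPKM, which scale fragments by gene length and library size, so genes of different length can be compared. A log2 fold change is the A2ARKO mean of log2(FPKM + 1) less the WT mean, a scale on which low genes appear to change less than they do. A gene was called when limma, fitted on the 11595 genes that reached 1 FPKM in at least 3 libraries, gave a Benjamini-Hochberg adjusted p below 0.05. All 35 members passed this filter, and 33 of them reached 1 FPKM in every library. Adora2a itself was at 9.36, 7.31 and 3.46 FPKM in WT and at 0.41, 0.54 and 0.66 FPKM in A2ARKO. The genotypes did not overlap (two-sided exact permutation p = 0.1, the smallest that 3 against 3 libraries allow), and Adora2a was called lower (log2 fold change -2.25, limma adjusted p = 0.0203). With 1 library left out its adjusted p ran from 0.00999 to 0.0955. The deleted exons of Adora2a were not named in the labels.

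The libraries differed in marker genes of several cell types, within WT and between the genotypes. The sum of 10 chondrocyte markers ranged from 480 to 24190 FPKM in WT and from 2179 to 6024 FPKM in A2ARKO, with WT replicate 1 highest. Col2a1, the collagen that defines cartilage, was present in every library at 185 FPKM or more, whereas Chad was at 0.07 FPKM in WT replicate 3. WT replicate 2 had the highest sum of 12 macrophage and leukocyte markers (1944 FPKM, against 135 and 186 in the other WT libraries and 26.6 to 53.7 in A2ARKO) and of 6 skeletal muscle markers (869 FPKM, against 6.96 to 26.4 in the other libraries). Of the 11 macrophage and leukocyte markers tested, 9 were lower in every A2ARKO library than in every WT library, beside 14.9% of all genes. C1qa was at 0 in A2ARKO replicate 3. The sum of 5 osteoblast markers was 503.5 FPKM in WT replicate 1, against 20.58 and 9.71 in WT replicates 2 and 3 and 39.64 to 70.3 in A2ARKO. The sum of 8 fibroblast and tendon markers ran from 503.9 to 649.7 FPKM in WT and from 616.5 to 1171 FPKM in A2ARKO. Of the 7 tested, 1, Dpt, was called lower (log2 fold change -2.22, limma adjusted p = 0.0354), beside 1.77% of all genes. Log2 fold changes were above 0 for 3 of these 7 markers, beside 50.4% of all genes. Endothelial markers summed to at most 3.76 FPKM and erythroid markers to at most 0.13 FPKM. In such bulk samples fewer cells of a type and less RNA per cell cannot be told apart. The part of these differences in the results was not tested. Values without WT replicate 1 or 2 are given beside some of the results, mainly where a call changed.

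Of the 35 members, 6 rose in A2ARKO chondrocytes, 0 fell and 29 did not pass the test. The 6 were the death receptor genes Fas and Tnfrsf10b, the p53 inhibitor gene Mdm2, the CDK inhibitor gene Cdkn1a, the BH3-only gene Pmaip1 and the nuclease gene Aen. They make up 17.1% of the members, beside 3.31% of all genes tested called higher and 1.77% called lower. The members were chosen with earlier results of these data known, so these shares are not an independent test. The median log2 fold change over the members was 0.36, and it was 0.0 over all genes tested. A total of 15 members were higher and 2 lower in every A2ARKO library than in every WT library, beside 18.0% and 14.9% of all genes tested. The log2 fold change was above 0 for 28 members, beside 50.4% of all genes tested. At an unadjusted limma p below 0.05, 14 members were higher and 2 lower, beside 14.3% and 10.4% of all genes. Calls in either direction made up 5.08% of all genes, and groups without overlap 32.9%. Of the 6 calls, 6 were kept without WT replicate 1, 4 without WT replicate 2 and 5 without WT replicate 3. Only 2, 0 and 1 were kept without A2ARKO replicates 1, 2 and 3. In those fits the log2 fold changes of the 6 members lay between 0.65 and 1.56, beside 0.72 to 1.48 with all libraries. Whether the larger spread among WT libraries, given below, bears on the lost calls was not tested. Leaving out WT replicate 1 or 3 added 3 members called higher and 1 called lower in each case, which gave 9 and 8 called higher. After the libraries were rescaled to the same FPKM sum 2 of the 6, Mdm2 and Fas, were called, and 51.1% of all calls were higher in place of 65.2%.

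**Figure D1:**
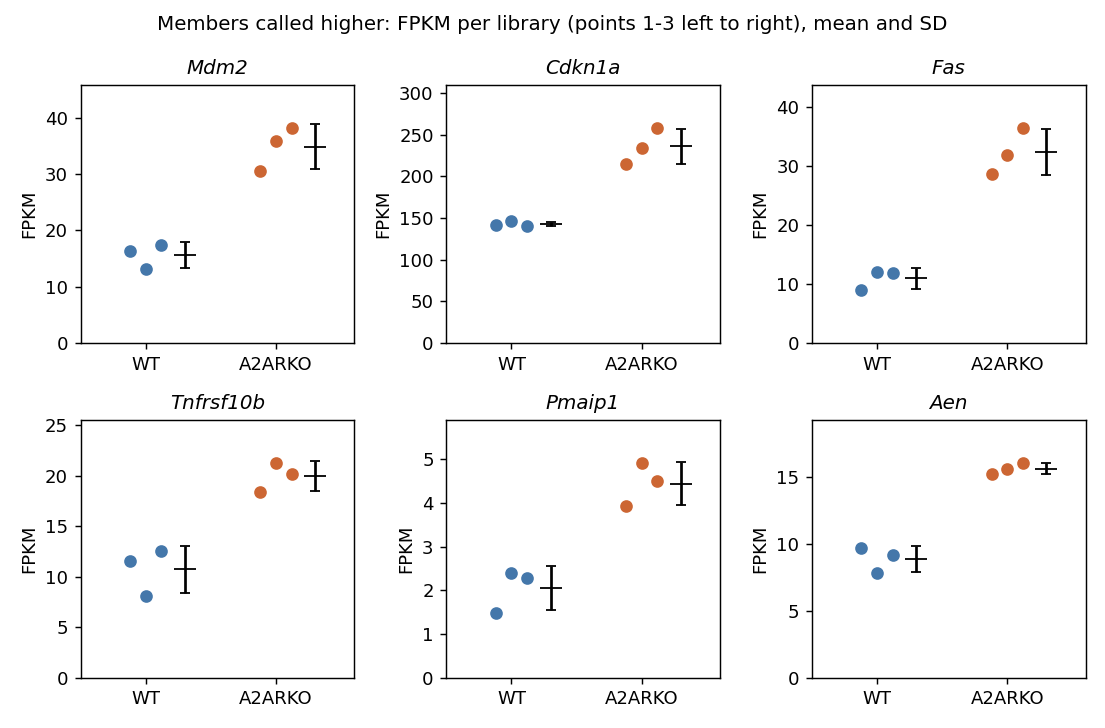
FPKM (y axis, from 0) of the 6 members called higher, in the 3 WT and 3 A2ARKO libraries; points are libraries 1, 2 and 3 from left to right, and the bar beside them is the mean with its SD. In each panel every A2ARKO library lies above every WT library, as for Fas, with 8.96 to 12.06 FPKM in WT and 28.68 to 36.49 FPKM in A2ARKO.

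Trp53, the gene of p53 itself (mm10 chromosome 11, 69580359 to 69591873, plus strand), was at 22.24, 28.06 and 21.38 FPKM in WT and at 37.75, 32.57 and 31.14 FPKM in A2ARKO. The groups did not overlap, but the difference did not pass the test (log2 fold change 0.49, standard error 0.135, limma adjusted p = 0.0942). Mdm2, the ubiquitin ligase that targets p53 for degradation, was at 16.40, 13.08 and 17.35 FPKM in WT and at 30.49, 35.90 and 38.22 FPKM in A2ARKO. It rose from 15.6 ± 2.24 to 34.9 ± 3.97 FPKM (SD, n = 3), with a log2 fold change of 1.11 (standard error 0.139, limma adjusted p = 0.0154). Mdm2 passed whichever WT library was left out and lost the call without A2ARKO replicate 2 or 3 (limma adjusted p of 0.0868 and 0.0785). Mdm4, the Mdm2 relative that binds p53 and blocks its activity, was at 4.05, 3.91 and 6.48 FPKM in WT and at 4.77, 4.24 and 4.42 FPKM in A2ARKO. The Mdm4 groups overlapped, and the 95% interval of its log2 fold change ran from -0.49 to 0.37. Mdm2 lies on chromosome 10 (117688875 to 117710758, minus strand), 42.4 Mb from Adora2a, and 3 further members share that chromosome: Gadd45b at 5.6 Mb, Apaf1 at 15.7 Mb and Perp at 56.5 Mb from Adora2a. None of these 3 passed the limma test, and Gadd45b, the nearest, had a log2 fold change of 0.22.

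Cdkn1a, which encodes the CDK inhibitor p21 and is the main effector of p53 in cell cycle arrest, had the highest level of all members. It was at 141.91, 145.85 and 140.29 FPKM in WT and at 215.30, 234.24 and 258.17 FPKM in A2ARKO. The WT libraries differed little from one another, and the lowest A2ARKO library was above them all. Cdkn1a rose from 143 ± 2.86 to 236 ± 21.5 FPKM (SD, n = 3), a 1.65-fold ratio of means (log2 fold change 0.72, standard error 0.124, limma adjusted p = 0.0354). It passed without WT replicate 1 (limma adjusted p = 0.043) and lost the call when any of the other 5 libraries was left out, at log2 fold changes between 0.65 and 0.78. An annotated transcript on the opposite strand, AC167363.2, shares 7.68% of the exon length of Cdkn1a, and whether the counting used strand is unknown here.

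The INK4 genes hold the senescent arrest by inhibiting the kinases CDK4 and CDK6. Cdkn2a, the senescence marker gene that encodes p16 and, in another reading frame, p19ARF, was at 11.36, 13.83 and 27.30 FPKM in WT and at 22.73, 22.89 and 13.81 FPKM in A2ARKO. All 3 A2ARKO libraries lay within the WT range, whose highest value was that of WT replicate 3. The 95% interval of the Cdkn2a log2 fold change ran from -0.63 to 1.09, and a gene-level table does not separate its products. Its neighbour Cdkn2b, encoding p15, was at 26.85, 40.42 and 50.92 FPKM in WT and at 59.61, 50.92 and 45.72 FPKM in A2ARKO, also with overlap (interval from -0.16 to 1.02). Cdkn2c, encoding p18, averaged 12.5 ± 2.71 and 16.2 ± 2.11 FPKM (SD, n = 3) in WT and A2ARKO and did not pass (limma adjusted p = 0.277).

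Fas, the receptor for Fas ligand, showed the largest log2 fold change among the called members. It was at 8.96, 12.06 and 11.93 FPKM in WT and at 28.68, 31.93 and 36.49 FPKM in A2ARKO. Every A2ARKO library was far above every WT library. Fas rose from 10.98 ± 1.75 to 32.4 ± 3.92 FPKM (SD, n = 3), with a log2 fold change of 1.48 (standard error 0.146, limma adjusted p = 0.0093). It passed in 5 of the 6 fits with 1 library left out and reached an adjusted p of 0.0617 without A2ARKO replicate 2. Without WT replicate 1 and without WT replicate 2 its log2 fold change was 1.35 and 1.55. Tnfrsf10b, the mouse receptor for the ligand TRAIL, was at 11.53, 8.08 and 12.55 FPKM in WT and at 18.37, 21.30 and 20.21 FPKM in A2ARKO. The groups did not overlap, and Tnfrsf10b rose at a log2 fold change of 0.86 (standard error 0.165, limma adjusted p = 0.0451). It passed whichever WT library was left out and did not pass without A2ARKO replicates 1, 2 and 3 (limma adjusted p of 0.12, 0.181 and 0.168). Eda2r, a receptor for ectodysplasin A2, was at 2.29, 6.19 and 7.12 FPKM in WT and at 9.35, 9.61 and 9.04 FPKM in A2ARKO. WT replicate 1 was the lowest by far, and the difference did not pass (log2 fold change 0.84, limma adjusted p = 0.194). Without WT replicate 1 the log2 fold change of Eda2r was 0.435 (limma adjusted p = 0.0511). The ligand genes stayed near the limit of detection: Fasl was listed at 0 in every library, and Tnfsf10, the TRAIL gene, reached at most 0.21 FPKM.

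BH3-only proteins start the mitochondrial route by blocking survival members of the BCL2 family or activating its pore formers. Pmaip1, which encodes Noxa, was at 1.47, 2.40 and 2.28 FPKM in WT and at 3.92, 4.92 and 4.49 FPKM in A2ARKO. Pmaip1 rose at a log2 fold change of 0.85 (standard error 0.152, limma adjusted p = 0.0385). It lost the call without WT replicate 2 (limma adjusted p = 0.0597) and without A2ARKO replicates 1, 2 and 3 (0.0991, 0.171 and 0.157). Bbc3, which encodes Puma and is likewise a p53 target, was at 9.89, 8.21 and 9.66 FPKM in WT and at 8.35, 7.64 and 7.71 FPKM in A2ARKO. The log2 fold change of Bbc3 was -0.20 with a 95% interval from -0.43 to 0.03, so its interval does not reach the estimate for Pmaip1. Bid, which links death receptors to the mitochondria, was at 5.66, 8.47 and 7.47 FPKM in WT and at 11.06, 12.99 and 12.22 FPKM in A2ARKO. Its groups did not overlap and it narrowly missed the threshold (log2 fold change 0.69, limma adjusted p = 0.0555), passing without WT replicate 1 (limma adjusted p = 0.044). Bid shares 17.7% of its exon length with Bcl2l13 on the opposite strand, which reached 6.84 FPKM. Bcl2l11, encoding Bim, was at 1.56, 4.06 and 3.01 FPKM in WT and at 1.91, 1.5 and 1.36 FPKM in A2ARKO, and its log2 fold change of -0.53 did not pass (limma adjusted p = 0.264). Without WT replicate 1 Bcl2l11 was called lower (log2 fold change -0.80, limma adjusted p = 0.0443). Bad stayed between 13.36 and 16.55 FPKM in all 6 libraries. It shares 20.5% of its exon length with Gpr137 on the opposite strand, which reached 12.11 FPKM.

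**Figure D2:**
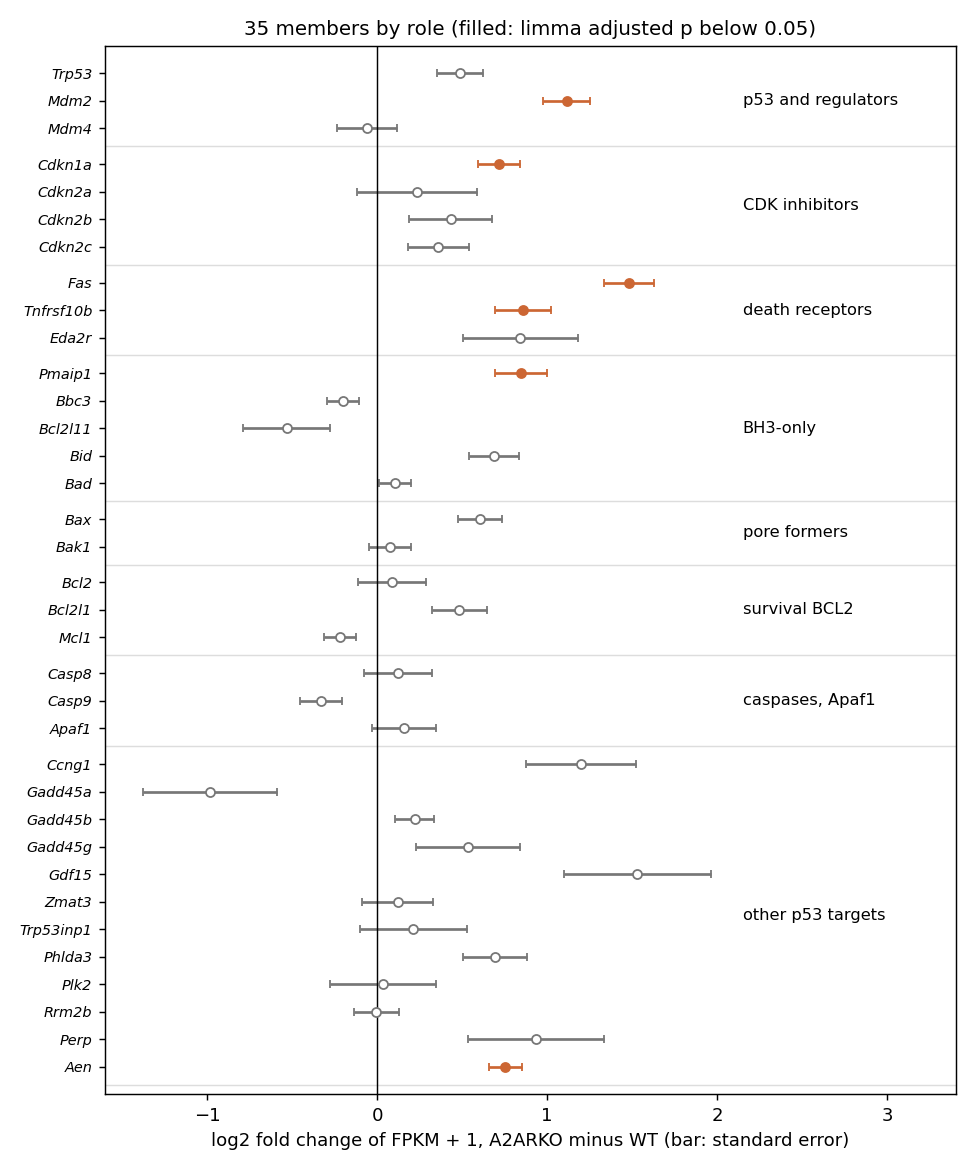
Log2 fold change of FPKM + 1 (x axis, A2ARKO minus WT) of the 35 members, grouped by role, with the standard error as bar; filled points have a limma adjusted p below 0.05. The 6 filled points lie between 0.72 for Cdkn1a and 1.48 for Fas, and Gdf15 lies further right than Fas with a bar of 0.433.

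Bax and Bak1 encode the proteins that open the mitochondrial outer membrane. Bax, the p53 target of the pair, was at 112.80, 110.96 and 129.58 FPKM in WT and at 193.42, 180.89 and 164.65 FPKM in A2ARKO. The groups did not overlap and the mean was 1.53-fold higher, yet Bax did not pass (log2 fold change 0.61, limma adjusted p = 0.0533). It was called without WT replicate 3 (limma adjusted p = 0.0494), and the annotated gene Gm45808 shares 12.2% of its exon length on the same strand. Bak1 ran from 27.09 to 33.42 FPKM in WT and from 28.87 to 35.93 FPKM in A2ARKO, so the groups overlapped. Ggnbp1, on the opposite strand and at most at 0.74 FPKM, shares 25.5% of the exon length of Bak1.

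The survival members of the family hold Bax and Bak1 in check. Mcl1, the most abundant of them, was at 45.54, 45.42 and 45.76 FPKM in WT and at 35.32, 41.46 and 40.56 FPKM in A2ARKO. All 3 A2ARKO libraries were lower than WT, and the log2 fold change of -0.22 did not pass (limma adjusted p = 0.217). Bcl2l1, encoding Bcl-xL, was at 17.60, 12.27 and 11.78 FPKM in WT and at 18.10, 20.77 and 19.66 FPKM in A2ARKO. Its groups were separated by a narrow gap, since WT replicate 1 was close to the lowest A2ARKO library (log2 fold change 0.48, limma adjusted p = 0.137). Without WT replicate 1 Bcl2l1 was called higher (log2 fold change 0.65, limma adjusted p = 0.0237). Bcl2 itself was low, at 2.14, 0.95 and 1.07 FPKM in WT and at 1.28, 1.53 and 1.62 FPKM in A2ARKO, and its interval ran from -0.40 to 0.57. The summed FPKM of Bax and Bak1 divided by that of Bcl2, Bcl2l1 and Mcl1, a ratio chosen after the values were seen, was 2.14, 2.46 and 2.74 in WT and 4.19, 3.34 and 3.13 in A2ARKO. This ratio was therefore higher in every A2ARKO library, and most of its sum came from Bax and Mcl1.

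Downstream of the mitochondria, Apaf1 assembles the complex that activates caspase-9, while caspase-8 acts below the death receptors. None of these 3 genes passed the limma test. Casp9 was at 4.40, 6.09 and 4.63 FPKM in WT and at 3.51, 3.84 and 3.97 FPKM in A2ARKO, lower in every A2ARKO library (log2 fold change -0.33, limma adjusted p = 0.176). Casp8 and Apaf1 were lowest in WT replicate 1, at 6.12 and 4.19 FPKM, and the A2ARKO libraries, at 9.44 to 10.03 and 6.19 to 6.41 FPKM, lay within the WT range.

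Among the 12 further p53 target genes of the set, 1 (8.33%), Aen, passed the test, beside 3.31% of all genes tested called higher. Aen encodes a p53-induced nuclease that acts in apoptosis. It was at 9.70, 7.80 and 9.21 FPKM in WT and at 15.24, 15.62 and 16.09 FPKM in A2ARKO. It rose from 8.90 ± 0.986 to 15.7 ± 0.426 FPKM (SD, n = 3), with a log2 fold change of 0.75 (standard error 0.097, limma adjusted p = 0.0164). Aen passed whichever WT library was left out and not without A2ARKO replicates 1, 2 and 3 (limma adjusted p of 0.0693, 0.0986 and 0.0942).

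Several others of these targets were split by a single WT library. Ccng1, encoding the p53-induced cyclin G1, was at 53.47, 50.21 and 114.81 FPKM in WT and at 142.73, 166.41 and 161.54 FPKM in A2ARKO. WT replicate 3 lay between the other WT libraries and A2ARKO, and the log2 fold change of 1.199 did not pass (limma adjusted p = 0.091). Phlda3, an inhibitor of the survival kinase Akt, had the same order, at 78.36, 74.37 and 115.65 FPKM in WT and at 135.02, 147.37 and 144.80 FPKM in A2ARKO (log2 fold change 0.69, limma adjusted p = 0.0922). Without WT replicate 3 both were called higher, Ccng1 at 1.58 and Phlda3 at 0.89 (limma adjusted p of 0.0105 and 0.0208). Gdf15, a stress-induced secreted factor, was at 8.81, 1.84 and 3.64 FPKM in WT and at 15.22, 13.88 and 11.86 FPKM in A2ARKO. Gdf15 had the largest log2 fold change of all members, 1.53 with a standard error of 0.433, and did not pass (limma adjusted p = 0.0991). Without WT replicate 1 it was called higher at 2.01 (limma adjusted p = 0.0174).

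The Gadd45 genes, whose products respond to DNA damage and other stress, did not share a direction. Gadd45a, the p53 target among them, was at 22.66, 27.60 and 8.76 FPKM in WT and at 8.25, 8.06 and 9.18 FPKM in A2ARKO. WT replicate 3 was as low as A2ARKO, so the groups overlapped (log2 fold change -0.98, limma adjusted p = 0.193). Without WT replicate 3 Gadd45a was called lower at -1.46 (limma adjusted p = 0.0107). The transcript E230016M11Rik, on the opposite strand and at most at 0.25 FPKM, shares 19.1% of its exon length. Gadd45b ran from 22.29 to 28.64 FPKM in WT and from 28.95 to 31.43 FPKM in A2ARKO, so its groups did not overlap (limma adjusted p = 0.291). Gadd45g ran from 34.58 to 79.65 FPKM in WT and from 70.46 to 92.25 FPKM in A2ARKO, with overlap. Neither passed the limma test.

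**Figure D3:**
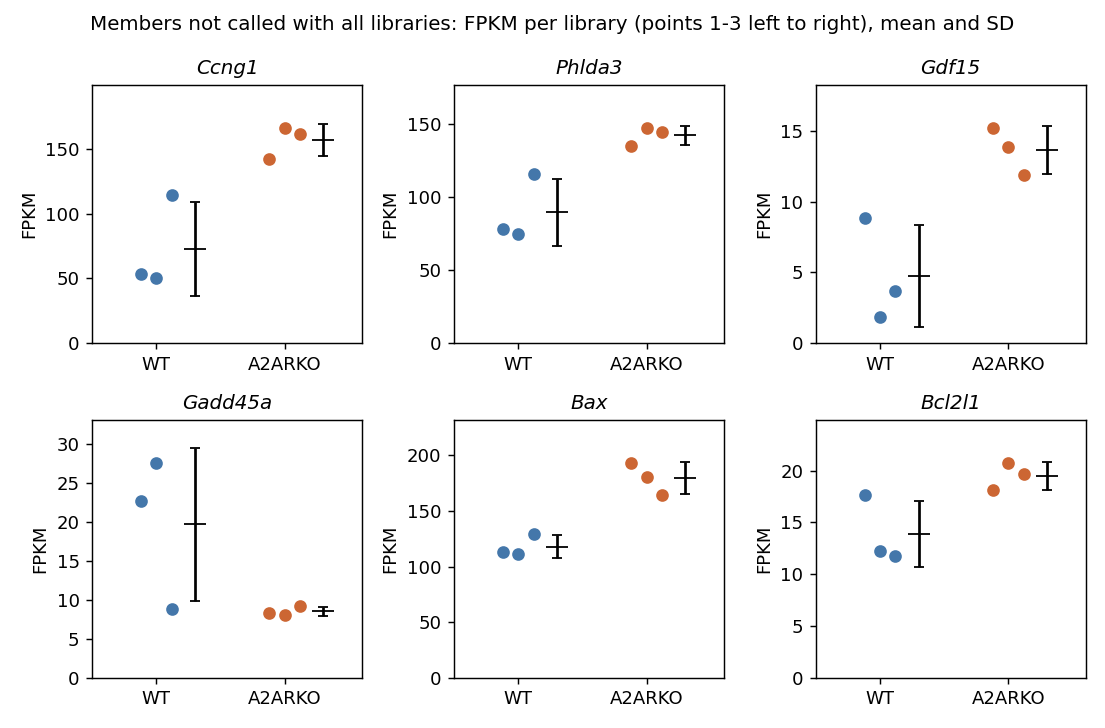
FPKM (y axis, from 0) of 6 members that were not called with all libraries; points are libraries 1, 2 and 3 from left to right, and the bar is the mean with its SD. WT replicate 3 stands apart from the other WT libraries for Ccng1 (114.81 FPKM), Phlda3 (115.65 FPKM) and Gadd45a (8.76 FPKM), and WT replicate 1 for Gdf15 (8.81 FPKM) and Bcl2l1 (17.60 FPKM).

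The remaining targets had overlapping groups, and none passed the limma test. Zmat3, which encodes an RNA-binding p53 effector, and Trp53inp1, which encodes a p53 cofactor, were highest in WT replicate 3, at 14.07 and 21.69 FPKM. The polo-like kinase gene Plk2 averaged 44.0 ± 17.8 FPKM in WT and 42.4 ± 1.81 FPKM in A2ARKO (SD, n = 3). Rrm2b, the p53-induced subunit of ribonucleotide reductase, stayed between 1.13 and 1.81 FPKM in all libraries. Perp, a membrane protein of desmosomes and apoptosis, was at 2.25, 0.80 and 1.0 FPKM in WT and at 1.48, 5.17 and 4.34 FPKM in A2ARKO. Perp was the member with the fewest estimated reads, 78 in WT replicate 2.

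The WT litters varied more than the A2ARKO litters. The median SD of log2(FPKM + 1) over the members was 0.306 in WT and 0.116 in A2ARKO, beside 0.192 and 0.097 over all genes tested. A total of 31 members (88.6%) had the smaller SD in A2ARKO, beside 78.9% of all genes tested. The highest WT library was replicate 3 for 14 members, replicate 2 for 12 and replicate 1 for 9. Summed over the 35 members, the level was 843, 848 and 1002 FPKM in WT and reached 1295, 1327 and 1315 FPKM in A2ARKO. Cdkn1a, Bax, Ccng1 and Phlda3 were the most abundant members in A2ARKO and contribute most to this sum.

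**Figure D4:**
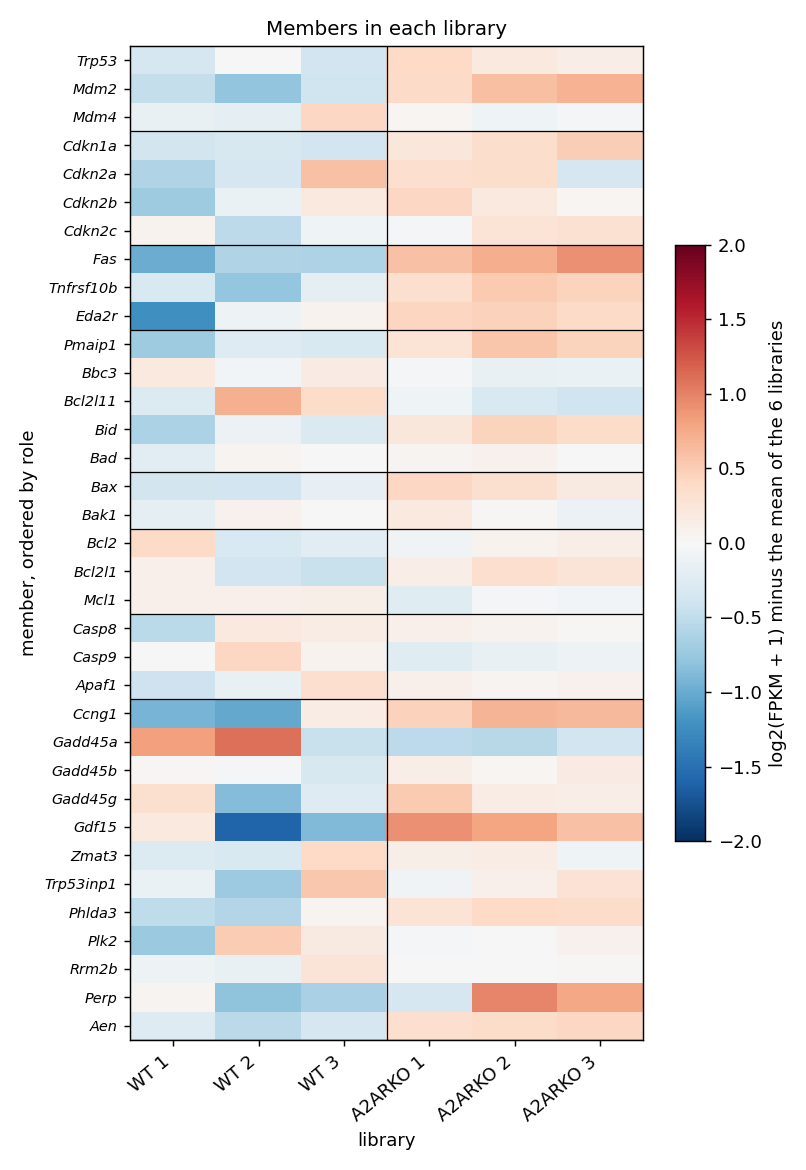
Each cell gives log2(FPKM + 1) of a member (row, ordered by role) in a library (column) minus the mean of that member over the 6 libraries. The rows of Mdm2, Cdkn1a, Fas, Tnfrsf10b, Pmaip1 and Aen change colour between the genotypes, whereas those of Cdkn2a, Plk2 and Trp53inp1 vary mainly among the WT libraries.

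Promoters of the members were searched for the p53 half-site, a decamer that makes up only part of a full p53 binding site. Several classical p53 targets were higher in A2ARKO, whereas others, such as Bbc3 and Gadd45a, had log2 fold changes below 0. RefSeq windows on GRCm38.p6, from 250 bases before to 50 after an annotated start, were matched by symbol for 29 of the 35 members. Tnfrsf10b, Pmaip1, Zmat3, Trp53inp1, Rrm2b and Perp were not matched. The p53 consensus decamer, a palindrome that reads the same on both strands, was present for 7 of the 29 members (24.1%), beside 9.55% of all 27025 genes in that table. The 7 were Trp53, Mdm2, Cdkn1a, Bax, Ccng1, Gadd45a and Aen. In 6 of them every A2ARKO library was above every WT library, with Gadd45a the exception, and 3 of the 7 were called higher. Of the 22 members without the decamer in this window, 7 were higher and 2 lower in every A2ARKO library, and 1, Fas, was called higher. Over all genes tested, 18.0% were higher and 14.9% lower without overlap, and 3.31% were called higher. The difference between the members with and without the decamer was not tested. The NF-kappaB consensus, searched on both strands, was present for Bbc3, Bcl2l1 and Trp53, or 10.3% of the 29, beside 5.14% of all genes. The box TATAAA, also on both strands, was found for Eda2r, Gadd45b, Gadd45g and Trp53, or 13.8%, beside 15.7% of all genes. A match describes letters in the window and not binding, and the known p53 sites of several of these genes lie outside it.

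The 250 bases before an annotated start are shown for 4 of the called members, 5′ to 3′ on the strand of the gene. Where a gene had several windows, those with a decamer in these bases were taken. Trp53 and Gadd45a, which also have the decamer, are not shown. Whether the decamer bears on the measured levels was not tested. Capitals mark the p53 consensus decamer. Cdkn1a (chr17:29090729-29090978, plus strand) has 2 copies, from -73 to -64 and from -51 to -42 counted from the start. Mdm2 (chr10:117710759-117711008, minus strand) has 1 copy from -186 to -177, and Aen (chr7:78895808-78896057, plus strand) has 1 from -121 to -112. Aen has a further annotated start, and counted from it the same match lies downstream, from 10 to 19. Fas (chr19:34290409-34290658, plus strand), which had the largest log2 fold change among the called members, has no match in these bases.
Cdkn1a: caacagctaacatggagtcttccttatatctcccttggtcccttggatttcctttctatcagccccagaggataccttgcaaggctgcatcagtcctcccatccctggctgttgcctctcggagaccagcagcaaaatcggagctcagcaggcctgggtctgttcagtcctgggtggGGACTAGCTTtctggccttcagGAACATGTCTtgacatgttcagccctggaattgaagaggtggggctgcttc
Mdm2: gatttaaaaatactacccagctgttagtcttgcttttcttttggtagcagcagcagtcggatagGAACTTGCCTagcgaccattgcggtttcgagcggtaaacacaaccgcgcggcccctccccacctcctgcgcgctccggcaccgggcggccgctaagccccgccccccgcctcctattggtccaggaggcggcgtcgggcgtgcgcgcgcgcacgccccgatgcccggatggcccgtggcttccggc
Aen: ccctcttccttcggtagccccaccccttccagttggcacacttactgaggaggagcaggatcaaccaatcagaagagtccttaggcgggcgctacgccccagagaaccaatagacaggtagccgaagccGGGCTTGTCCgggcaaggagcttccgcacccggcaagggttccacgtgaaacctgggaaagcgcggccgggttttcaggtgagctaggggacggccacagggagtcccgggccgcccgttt
Fas: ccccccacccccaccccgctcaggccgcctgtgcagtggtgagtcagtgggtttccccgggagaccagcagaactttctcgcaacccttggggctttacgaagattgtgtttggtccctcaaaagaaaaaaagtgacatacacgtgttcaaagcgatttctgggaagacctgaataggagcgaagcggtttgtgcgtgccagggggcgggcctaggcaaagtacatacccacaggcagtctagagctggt

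Shorter stretches of 60 bases are given for Bax (chr7:45467065-45467124, minus strand) and Ccng1 (chr11:40755437-40755496, minus strand), abundant p53 targets that were higher in every A2ARKO library without passing the test.
Bax: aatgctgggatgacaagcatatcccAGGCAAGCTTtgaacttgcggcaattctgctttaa
Ccng1: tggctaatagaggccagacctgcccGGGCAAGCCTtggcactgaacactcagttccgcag

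Further genes of the pathway were taken as 4 lists with no gene in common with the members. These lists were likewise chosen with earlier results of these data known. Of 32 further p53 target genes, all tested, 7 rose, 1 fell and 24 did not pass (median log2 fold change 0.37, limma). These 7 are 21.9% of the list, beside the 3.31% of all genes called higher. Gtse1, Pidd1 and Dcxr were among those that rose. Pidd1, which encodes the p53-induced death domain protein, rose from 1.44 ± 0.584 to 5.34 ± 0.633 FPKM (SD, n = 3), and its log2 fold change was 1.40 (limma adjusted p = 0.0179). Gtse1, a G2 phase protein that restrains p53, and the carbonyl reductase gene Dcxr rose at 1.68 and 1.36 (limma adjusted p of 0.0457 and 0.0118). The single gene that fell was Sesn1, a sestrin of the stress response, from 12.3 ± 0.840 to 7.25 ± 0.208 FPKM at -0.69 (limma adjusted p = 0.013), named after its value was seen. Leaving out WT replicates 1, 2 and 3 in turn gave 5, 4 and 12 genes of this list that rose, against 1, 0 and 0 for A2ARKO replicates 1, 2 and 3. Each of the 4 genes named lost its call without any A2ARKO library, and Gtse1 kept it only without WT replicate 3.

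Of 35 further apoptosis genes, 27 were tested and 0 passed with limma (median log2 fold change 0.3). Over all genes tested, 3.31% were called higher and 1.77% called lower. At an unadjusted limma p below 0.05, 8 were higher and 1 lower, beside 14.3% and 10.4% of all genes tested. The smallest p-values were those of Bmf, another BH3-only gene, from 3.11 ± 1.33 to 0.917 ± 0.256 FPKM (SD, n = 3; log2 fold change -1.06, limma adjusted p = 0.0607), and of Tnfaip3, an inhibitor of NF-kappaB signalling, from 0.897 ± 0.723 to 3.03 ± 0.439 FPKM (1.146, limma adjusted p = 0.063).

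Of 20 further senescence genes, 19 were tested, 2 rose, 1 fell and 16 did not pass (median log2 fold change 0.16), beside 3.31% of all genes called higher and 1.77% called lower. Plaur, the urokinase receptor, rose from 5.74 ± 1.29 to 17.4 ± 2.04 FPKM (SD, n = 3; log2 fold change 1.46, limma adjusted p = 0.0117), and Igfbp7, a secreted factor of senescent cells, rose at 1.09 (limma adjusted p = 0.0357). Cdkn1c, encoding the CDK inhibitor p57, was at 50.98, 84.79 and 28.54 FPKM in WT and at 12.44, 12.65 and 13.40 FPKM in A2ARKO and fell at -1.88 (limma adjusted p = 0.0457), the direction opposite to Cdkn1a. Cdkn1c lost the call without WT replicate 1 or 2 (limma adjusted p of 0.0643 and 0.0553) and without any A2ARKO library (0.143 to 0.175).

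The last list held 13 genes, mainly for p53 kinases, phosphatases and damage sensors, and also Trp63, Trp73 and Usp7. Of these 13, 12 were tested (all but Trp73), 2 rose and 10 did not pass (median log2 fold change 0.25), beside 3.31% of all genes called higher. Hipk2, a kinase that phosphorylates p53, rose from 4.41 ± 1.56 to 13.5 ± 2.64 FPKM (SD, n = 3; log2 fold change 1.45, limma adjusted p = 0.032). Ppm1d, a p53-induced phosphatase that switches p53 off, rose from 4.18 ± 0.106 to 5.98 ± 0.324 FPKM (0.43, limma adjusted p = 0.0381). The damage kinase genes Atm, Atr, Chek1 and Chek2 did not pass, at log2 fold changes between 0.16 for Atr and 0.34 for Chek2. The senescence and kinase lists lost every call when any A2ARKO library was left out, and the kinase list also without WT replicate 2. Hipk2 kept its call only without WT replicate 1, and Igfbp7 also lost it without WT replicate 2 (limma adjusted p = 0.0642).

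**Figure D5:**
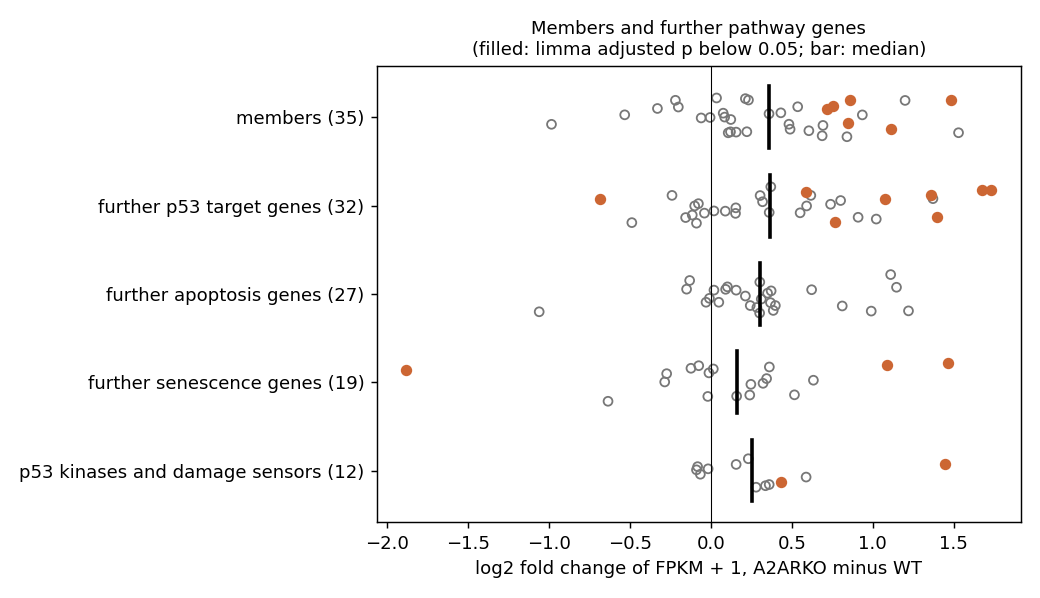
Log2 fold change of FPKM + 1 (x axis, A2ARKO minus WT) of each tested gene, for the 35 members and 4 further lists (numbers tested in brackets); filled points have a limma adjusted p below 0.05 and bars are medians. Filled points lie mostly right of 0, and those left of it are Sesn1 (-0.69) and Cdkn1c (-1.88).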

How the data were processed

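RNA of primary chondrocytes was measured in 6 libraries, 3 WT and 3 A2ARKO. The authors deposited 1 table of FPKM rounded to 2 decimals. HTSeq and mm10 are named in the submitters' processing notes. For the aligner, annotation, gene lengths and strand use: not given in the sources used here. FPKM carry no count error. Steps between low FPKM of genes of at most 150 nt (GENCODE M21 lengths) gave whole reads, within 0.1 read, for at least 99.6% of values of up to 10 reads, and scaling totals of 41.6 to 58.1 M reads (M, mega). Estimated reads of members use these totals. Groups and columns follow the sample titles.

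Log2(FPKM + 1) was fitted with limma 3.58.1 in R 4.3.3 (intensity trend, no replicate block) over the 11595 genes that reached 1 FPKM in at least 3 libraries. Tests were two-sided with Benjamini-Hochberg adjustment. The fit was tested on simulated data. Alternatives were a pseudocount of 0.1, no filter, rescaling to the same FPKM sum, quantile normalization, a replicate block and leaving out each library. Intervals are 95% from the moderated fit. All members are named. From each further list up to 4 called genes with the largest change are named or, where none passed, 2 with the smallest p; some items are not reported here. The members and lists were chosen with earlier results of these data known.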

Additional observations from a re-analysis of the deposited data

How the results depend on the processing

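With each library left out in turn, members called ranged from 0 to 9 higher and 0 to 1 lower, and genes called from 50 to 900 (39 to 568 higher, 11 to 362 lower). For the further lists the ranges were 0 to 12 higher and 0 to 1 lower for p53 targets, 0 to 1 and 0 to 1 for apoptosis, 0 to 2 and 0 to 1 for senescence, and 0 to 2 higher for p53 kinases and sensors. These fits hold fewer libraries. With no filter, 26442 genes were tested and 213 called (143 higher, 70 lower), with 3 members, 3 p53 targets, 1 senescence gene and 0 kinases higher and 0 senescence genes lower. Rescaling to the same FPKM sum called 348 genes (178 higher), with 2 members, 3 p53 targets, 1 senescence gene and 1 kinase higher. Quantile normalization called 4 members, 5 p53 targets and 1 senescence gene higher. The cause of these differences was not tested. A pseudocount of 0.1 kept all 6 members.

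Replicate numbers did not pair the libraries: deviations of same-numbered libraries correlated at -0.521, -0.325 and -0.387, and 0 of 6 libraries correlated best with their own number. With the replicate block 2 genes were called (1 higher, 1 lower), with 0 members, 0 p53 targets, 0 senescence genes and 0 kinases in either direction. The block left the 6 members at limma adjusted p of 0.0616 to 0.174.

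Signs changed only for members that were not called. After rescaling, Bad was at -0.006, Bak1 at -0.04 and Plk2 at -0.084 (log2). Plk2 was at -0.029 after quantile normalization, and Rrm2b at 0.003 with a pseudocount of 0.1. With 1 library left out, Mdm4 ran from -0.168 to 0.136, Cdkn2a from -0.011 to 0.586, Bak1 from -0.005 to 0.151, Bcl2 from -0.044 to 0.299, Casp8 from -0.112 to 0.252, Apaf1 from -0.013 to 0.359, Zmat3 from -0.002 to 0.351, Trp53inp1 from -0.097 to 0.533, Plk2 from -0.326 to 0.296 and Rrm2b from -0.078 to 0.122. Estimated reads were fewest for Perp (78 in WT replicate 2), Pmaip1 (167 in WT replicate 1) and Gdf15 (170 in WT replicate 2), where depth limits the values most.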
